A study of Homo sapiens with 4 samples.

Results

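The unfolded protein response and ATF4 genes are a list of 40 human genes that cells draw on when unfolded proteins gather in the endoplasmic reticulum (ER) or when amino acids run short. They were picked as the array spots, control spots aside, whose RefSeq accession belonged to a listed symbol. Of the 40 genes, 39 had at least 1 probe, 57 probes in all, out of 17721 genes with a symbol on the array. SLC3A2, the heavy chain that carries several amino acid transporters to the cell surface, had no matching probe and is named only. RNA came from OVSAYO, an ovarian clear cell carcinoma cell line, in 4 conditions with 1 array each. NS-si cells were transfected with a non-specific (scramble) siRNA and Sp1-si cells with a pool of siRNAs against Sp1, a transcription factor that binds GC-rich promoters, and both were grown for 40 h. NS-si → CoCl2 and Sp1-si → CoCl2 cells then received 0.5 mM CoCl2, a chemical mimic of hypoxia that stabilises hypoxia-inducible factors (HIFs), for 4 h. All 4 conditions thus share the cell line and a transfection with lipofectamine, no array of untransfected cells is among them, and nothing in the labels says that any condition was repeated in another culture. The study asked which genes CoCl2 activates in a manner that depends on Sp1.

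In the ER membrane, PERK (encoded by EIF2AK3), IRE1 (encoded by ERN1) and ATF6 sense unfolded proteins. IRE1 splices the mRNA of XBP1, and the spliced form together with cleaved ATF6 raises chaperones, folding enzymes and the machinery of ER-associated degradation. PERK phosphorylates the translation factor eIF2, which slows protein synthesis while favouring translation of ATF4. ATF4 in turn activates genes for amino acid synthesis and uptake, and, together with CHOP (encoded by DDIT3), genes that restore translation or promote cell death. Since much of this control acts on splicing, cleavage and translation, an array that measures mRNA does not read the activity of XBP1, ATF6 or ATF4 itself.

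The arms of the response are known by short promoter elements, so the sequence before the transcription start is shown for genes on which the results below turn. The first set holds HSPA5, which encodes the chaperone BiP, at chr9:125241344-125241593 (minus strand), HERPUD1, a component of ER-associated degradation, at chr16:56931892-56932141 (plus strand), and CHAC1, a glutathione-degrading enzyme of the CHOP arm, at chr15:40953221-40953470 (plus strand). Each line gives 250 bases up to the transcription start, 5′ to 3′ in the direction of the gene, from RefSeq on GRCh38.p14. Capitals mark the ER stress response element I (ERSE-I, CCAAT and CCACG with 9 bases between them) in HSPA5, element II (ERSE-II, ATTGG and CCACG with 1 base between them) and a C/EBP-ATF response element (CARE, TTGCATCA) in HERPUD1, and a CARE in CHAC1.
HSPA5: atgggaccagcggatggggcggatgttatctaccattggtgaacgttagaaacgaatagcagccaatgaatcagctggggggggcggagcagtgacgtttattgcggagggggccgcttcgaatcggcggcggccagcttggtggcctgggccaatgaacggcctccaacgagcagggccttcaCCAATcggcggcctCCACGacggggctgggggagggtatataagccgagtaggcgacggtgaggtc
HERPUD1: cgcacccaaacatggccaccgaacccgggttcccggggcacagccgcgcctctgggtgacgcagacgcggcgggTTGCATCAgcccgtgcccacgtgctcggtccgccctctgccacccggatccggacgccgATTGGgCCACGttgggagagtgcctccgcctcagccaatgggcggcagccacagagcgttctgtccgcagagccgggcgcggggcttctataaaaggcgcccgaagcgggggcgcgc
CHAC1: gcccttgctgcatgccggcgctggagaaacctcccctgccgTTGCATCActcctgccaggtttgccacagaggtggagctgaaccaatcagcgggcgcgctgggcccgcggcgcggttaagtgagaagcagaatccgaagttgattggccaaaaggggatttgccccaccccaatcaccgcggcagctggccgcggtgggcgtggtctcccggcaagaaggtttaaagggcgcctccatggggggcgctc

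The second set holds genes of the ATF4 amino acid arm that were lower on both Sp1-si arrays. These are ASNS, asparagine synthetase, at chr7:97872409-97872658, SLC7A5, the large neutral amino acid transporter LAT1, at chr16:87869508-87869757, and SLC1A5, the glutamine transporter ASCT2, at chr19:46788595-46788844, all on the minus strand. Capitals mark the GC box (GGGCGG or its reverse complement CCGCCC), the core of sites known for Sp1, of which ASNS has 5, SLC7A5 has 4 and SLC1A5 has 4 in the stretch shown.
ASNS: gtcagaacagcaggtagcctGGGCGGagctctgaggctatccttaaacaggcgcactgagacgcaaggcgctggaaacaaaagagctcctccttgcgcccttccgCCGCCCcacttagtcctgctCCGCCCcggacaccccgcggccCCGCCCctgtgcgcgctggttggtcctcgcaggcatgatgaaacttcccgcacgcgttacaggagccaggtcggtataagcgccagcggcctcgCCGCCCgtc
SLC7A5: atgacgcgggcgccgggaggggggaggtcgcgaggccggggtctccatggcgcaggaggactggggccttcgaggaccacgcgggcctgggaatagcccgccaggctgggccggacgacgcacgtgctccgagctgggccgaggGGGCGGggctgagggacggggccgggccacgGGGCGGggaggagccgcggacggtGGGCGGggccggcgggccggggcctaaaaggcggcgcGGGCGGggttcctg
SLC1A5: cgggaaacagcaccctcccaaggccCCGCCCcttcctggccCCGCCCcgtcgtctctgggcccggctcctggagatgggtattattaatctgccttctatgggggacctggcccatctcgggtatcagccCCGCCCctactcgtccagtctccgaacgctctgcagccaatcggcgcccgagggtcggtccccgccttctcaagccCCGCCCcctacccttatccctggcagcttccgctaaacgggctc

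Promoter windows of 300 bases (250 before and 50 after the start) were at hand for 36 of the 40 genes, 55 windows in all, beside 35116 windows of all genes, and both strands were searched. PSPH, SHMT2, SLC7A11 and PDIA3 had none. ERSE-I stood in 9 of the 55 windows, those of CALR, CANX, CRELD2, HSP90B1, HSPA5, PDIA6 and XBP1, beside 0.0769% of all windows. Apart from XBP1, these are genes of the ER chaperone and folding arm. ERSE-II stood in the windows of HERPUD1 and SDF2L1, 2 of 55, beside 0.0541% of all windows. CARE, searched only as the exact letters TTGCATCA, stood in 5 windows, of CEBPG, CHAC1, HERPUD1, PPP1R15B and SLC1A5, beside 0.866% of all windows. Forms of CARE with other letters were not counted, so a gene left out here, such as ASNS, is not shown to lack the element. The core of the hypoxia response element (HRE, ACGTG) stood in 15 of the 55 windows (27.3%), beside 21.4% of all windows, and it can overlap the CCACG of either ERSE. The core of the UPR element (TGACGTGG), which contains the HRE core, stood in 0 of the 55 windows, beside 0.729% of all windows. GC boxes were in 41 of the 55 windows (74.5%), beside 45.0% of all windows. Of the 7 genes with a window that were at least 2-fold lower after Sp1 silencing without CoCl2, 5 had a GC box, and of the 29 other genes 24 had one. EIF2AK3 and PHGDH were the genes among those 7 in whose windows the letters did not occur. These matches describe letters in a window and were not tested as binding sites.

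The arrays had between 33081 and 34542 of 43376 spots well above background, and no spot was saturated. Values below are scaled signals, the processed spot intensity brought to a common 75th percentile on all 4 arrays. All 39 genes were well above background on all 4 arrays, and 15 of them had more than 1 probe, of which the brightest on average stands for the gene. Each condition has a single array and no replicate, so no p-value was computed and no difference could be set against the spread between cultures. The only error at hand is technical, the SD of a log2 ratio between spots of one probe on the same arrays, taken from 264 probes with 10 spots and like signal. For ERN1, the dimmest gene of the list, it was between 0.292 and 0.364 over the 4 comparisons. For the other genes it ran from 0.0159 to 0.0806. Genes are called higher or lower here at 2-fold or more (a log2 ratio of 1 or more either way), and a gene past 2-fold is beyond this technical error without being shown to be repeatable. Sp1 mRNA gave scaled signals of 543 without and 492 with CoCl2 in NS-si cells, and 39.9 without and 33.8 with it in Sp1-si cells, log2 ratios of -3.77 without and -3.87 with CoCl2, so the arrays match their siRNA labels. PAX8, EPCAM, KRT7 and KRT18, markers of Müllerian and other epithelial cells, were all well above background on all 4 arrays. Among 6 markers of blood, endothelial and stromal cells, PTPRC and PECAM1 were well above background on none of the arrays, COL1A1 had no matching probe, and CD3E (217 to 314), VWF (39.4 to 53.1) and DCN (15.7 to 28.9) were well above background. In RNA of a whole culture, fewer cells carrying a transcript and less of it per cell cannot be told apart. All 4 arrays were on 1 slide.

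**Figure D1:**
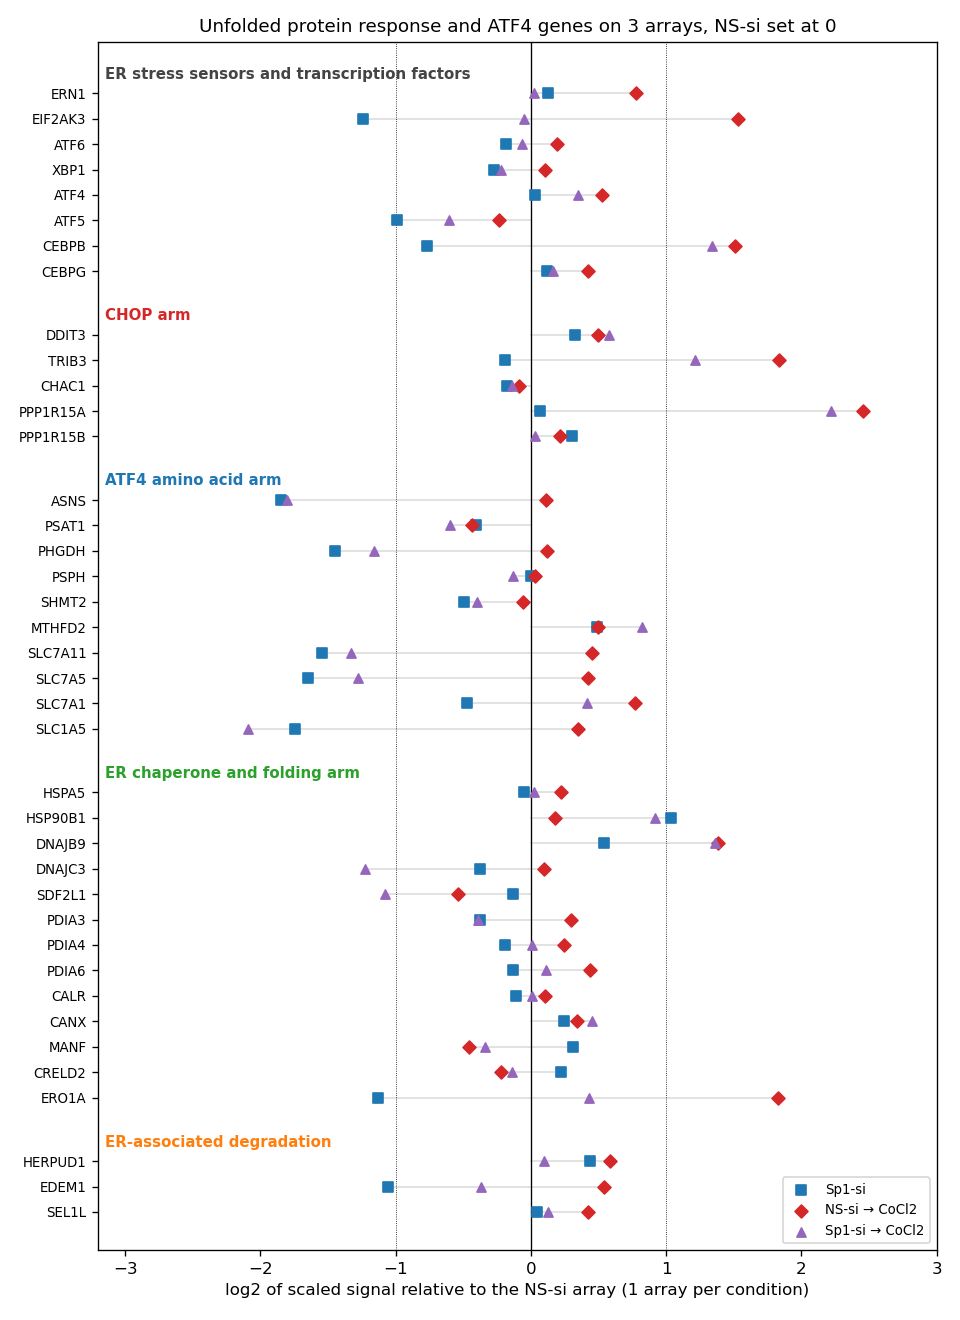
Log2 scaled signal of the 39 unfolded protein response and ATF4 genes on the Sp1-si (squares), NS-si → CoCl2 (diamonds) and Sp1-si → CoCl2 (triangles) arrays, relative to the NS-si array at 0, with dotted lines at 2-fold either way and genes grouped by role. PPP1R15A, TRIB3, ERO1A, EIF2AK3, CEBPB and DNAJB9 lie beyond 2-fold on the NS-si → CoCl2 array, and ASNS, SLC1A5, SLC7A5, SLC7A11 and PHGDH lie beyond 2-fold lower on both Sp1-si arrays.

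A few genes among the sensors and factors, the CHOP arm and the folding arm were higher with CoCl2. None of the 10 amino acid genes or the 3 genes of ER-associated degradation was among them. For lists this small, that is near the shares of all genes given next. Most of the 39 genes differed by less than 2-fold. In NS-si cells 6 of the 39 genes were at least 2-fold higher with CoCl2 and 0 were at least 2-fold lower, where 4.21% of all 15115 genes with a ratio were higher and 3.54% lower. These were PPP1R15A, TRIB3, ERO1A, EIF2AK3, CEBPB and DNAJB9. In Sp1-si cells 5 were higher and 0 lower, beside 3.72% and 3.97% of all 14927 genes. The 5 were among the 6 of the NS-si cells, with DNAJB9 short of 2-fold. How far such calls overlap over all genes was not counted. Quantile normalization, and scaling by the authors' constants, each put 1 gene at least 2-fold lower in silenced cells. The median log2 ratio over the 39 genes was 0.34 in NS-si and 0.12 in silenced cells, beside 0.0044 and -0.006 over all genes. Ratios were above 0 for 32 genes in NS-si and for 27 in silenced cells, beside 50.55% and 49.29% of all genes. Without scaling between arrays they were above 0 for 22 and 32 genes, where 70.54% and 30.25% of all genes were below 0. Leaving out the scaling moved the median of all genes to -0.22 and 0.22 in these comparisons, and to -0.06 and 0.37 for Sp1-si against NS-si cells without and with CoCl2. A small ratio therefore has no settled sign.

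Among the sensors, EIF2AK3 stood out. It gave scaled signals of 1743 without and 5035.5 with CoCl2 in NS-si cells, and 736 without and 1684 with it in Sp1-si cells. The log2 CoCl2 ratio was 1.53 in NS-si and 1.19 in silenced cells (spot SD 0.0301 and 0.031). Each treated array was thus higher than its untreated partner, yet Sp1-si → CoCl2 cells stood near the level of untreated NS-si cells, a log2 ratio of -0.05. ERN1 was dim, at 17.5 without and 29.9 with CoCl2 in NS-si cells, and 19.1 and 17.7 in silenced cells. Its ratio of 0.78 in NS-si cells stands beside a spot SD of 0.312. ATF6 was between 3552 and 4617 on all arrays, with CoCl2 ratios of 0.20 and 0.12.

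The transcription factors behaved unlike one another. ATF4 gave 89116 without and 128320 with CoCl2 in NS-si cells, and 91022 without and 113700 with it in Sp1-si cells, log2 CoCl2 ratios of 0.53 and 0.32, and its second probe gave 0.60 and 0.62. XBP1 gave 32540 and 34982 in NS-si cells and 26960 and 27887 in Sp1-si cells, without and with CoCl2, ratios of 0.10 and 0.05. This is the total of its spliced and unspliced forms as far as the probe tells. A second, dimmer probe of XBP1 gave 0.45 and 0.53, so the size depended on the probe. Neither ATF4 nor XBP1 reached 2-fold in any comparison. CEBPB, the C/EBPβ factor that pairs with ATF4 and CHOP and acts in inflammation too, gave 3629 without and 10315 with CoCl2 in NS-si cells, and 2130 without and 9199 with it in Sp1-si cells, each a mean over 10 spots. Its log2 CoCl2 ratios were 1.51 and 2.11 (spot SD 0.0201 and 0.0213), and those of a second, dimmer probe were 1.08 and 0.64, so both probes were higher with CoCl2 while the size in Sp1-si cells depended on the probe. CEBPG, a partner of ATF4, had ratios of 0.42 and 0.04. ATF5, a factor translated in the manner of ATF4, was 314 and 267 in NS-si cells and 158 and 206 in Sp1-si cells, without and with CoCl2, ratios of -0.23 and 0.38.

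In the CHOP arm the largest values belonged to PPP1R15A, which encodes GADD34, the subunit that brings a phosphatase to eIF2 and so restores translation. It gave 286 without and 1569 with CoCl2 in NS-si cells, and 299 without and 1333 with it in Sp1-si cells. The log2 CoCl2 ratios were 2.46 and 2.15 (spot SD 0.0412 and 0.0368), the highest of the 39 genes in each kind of cell, or 5.49-fold and 4.45-fold. Both treated arrays thus lay far above both untreated ones, with little between NS-si and Sp1-si cells. TRIB3, a pseudokinase that ATF4 and CHOP induce, gave 4197 without and 14969 with CoCl2 in NS-si cells, and 3679 without and 9719 with it in Sp1-si cells. Its log2 ratios were 1.83 and 1.40, and a second probe gave 2.24 and 1.502. DDIT3, which encodes CHOP itself, gave 189 without and 266 with CoCl2 in NS-si cells, and 236 without and 282 with it in Sp1-si cells, ratios of 0.50 and 0.26 with spot SDs of 0.0709 and 0.075. Its values spanned less than 2-fold over the 4 arrays. CHAC1, whose promoter above holds a CARE, lay between 2150 and 2428 on the 4 arrays with ratios of -0.09 and 0.03, and PPP1R15B, the constitutive counterpart of GADD34, had 0.22 and -0.27. Thus 2 of the 5 genes of this arm passed 2-fold in each kind of cell, and neither was DDIT3.

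The ER chaperone and folding arm held 13 genes, of which ERO1A and DNAJB9 passed 2-fold in NS-si cells and ERO1A alone did in Sp1-si cells. ERO1A, the oxidase that passes disulfide-forming oxidation to protein disulfide isomerases, is also a known HIF target. It gave 27871 without and 99042 with CoCl2 in NS-si cells, and 12719 without and 37566 with it in Sp1-si cells, and the log2 CoCl2 ratios were 1.83 and 1.56. A second probe gave 2.26 and 2.30. DNAJB9, the BiP cofactor ERdj4, gave 7002 without and 18257 with CoCl2 in NS-si cells, and 10183 without and 17958 with it in Sp1-si cells, ratios of 1.38 and 0.82. Both treated arrays were alike for DNAJB9, and the lower ratio in Sp1-si cells went with a higher untreated level there. The chaperones that define this arm differed less. HSPA5 gave 7802 without and 9106 with CoCl2 in NS-si cells, and 7512 without and 7922 with it in Sp1-si cells, log2 ratios of 0.22 and 0.08, and its second probe gave 0.21 and -0.23. HSP90B1, the chaperone GRP94, had ratios of 0.18 and -0.12, and a second probe -0.16 and -1.63, so the probes disagree in sign in NS-si cells and in size in Sp1-si cells. The protein disulfide isomerases PDIA3, PDIA4 and PDIA6 ranged from 0.24 to 0.44 in NS-si cells and from -0.01 to 0.24 in Sp1-si cells, and the lectin chaperones CALR and CANX from 0.10 to 0.34 and from 0.12 to 0.21.

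Several folding genes lay on the other side of 0. SDF2L1, a partner of BiP and ERdj proteins, had the lowest CoCl2 ratio of the list in both kinds of cells, -0.54 and -0.95, just short of 2-fold in the latter. MANF, a secreted protein of the ER, had -0.46 and -0.65, and CRELD2, a disulfide isomerase-like protein, had -0.22 and -0.36. DNAJC3, the P58IPK cochaperone that restrains PERK, had 0.10 and -0.85. The ERSE-bearing genes of this arm, HSPA5, HSP90B1, PDIA6, CALR, CANX and CRELD2, thus had CoCl2 ratios between -0.22 and 0.44 in NS-si cells, and SDF2L1, with an ERSE-II, was the lowest.

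In ER-associated degradation, HERPUD1, which has both an ERSE-II and a CARE in the stretch shown above, gave 28310 without and 42536 with CoCl2 in NS-si cells, and 38312 without and 30205 with it in Sp1-si cells. Its ratio was 0.59 in NS-si and -0.34 in silenced cells. EDEM1, which directs misfolded glycoproteins to disposal, had 0.54 and 0.69, and SEL1L, a scaffold of the HRD1 ubiquitin ligase, had 0.42 and 0.09. None of these 3 genes passed 2-fold with CoCl2.

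The ATF4 amino acid arm, 10 genes measured, had no gene past 2-fold with CoCl2 in either kind of cell. SLC7A1, a transporter of arginine and lysine, came nearest, at 0.77 and 0.89, and its second probe gave 0.73 and 0.85. SLC7A5 had 0.42 and 0.38 on the probe used, while its second probe had 1.05 and 0.06. SLC7A11, the cystine transporter xCT, had 0.45 and 0.22 on the probe used. Of its other probes, 1 had 0.28 and -0.65 and 1 had 0.45 and 0.32. MTHFD2, a mitochondrial folate enzyme, had 0.49 and 0.34. ASNS, a textbook ATF4 target, differed by 0.11 and 0.04. The serine synthesis enzymes PHGDH, PSAT1 and PSPH had 0.12, -0.44 and 0.03 in NS-si cells and 0.28, -0.19 and -0.14 in Sp1-si cells, and SHMT2, which turns serine to glycine, had -0.06 and 0.09. SLC1A5 had 0.35 and -0.35.

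**Figure D2:**
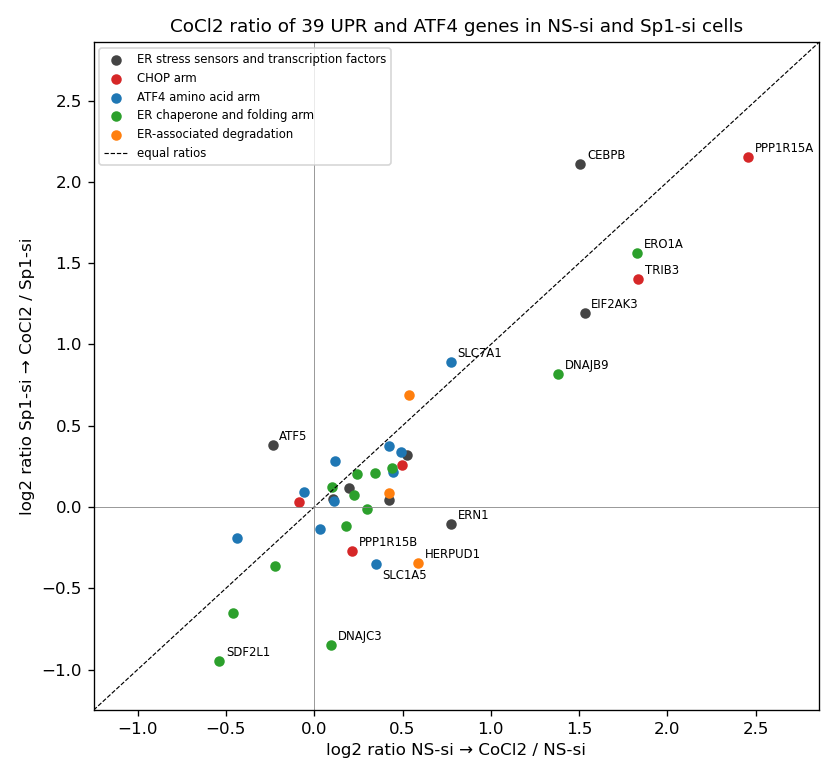
Log2 CoCl2 ratio of each of the 39 genes in NS-si (x axis) against that in Sp1-si cells (y axis), coloured by role, with 1 array per condition and the dashed line marking equal ratios. PPP1R15A lies at 2.46 and 2.15, CEBPB is above the line at 1.51 and 2.11, and HERPUD1 and DNAJC3 lie below it on opposite sides of 0 on the y axis and the x axis.

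Sp1 silencing went with lower signals of amino acid genes, of the PERK gene and of ERO1A, with and without CoCl2. Without CoCl2, 8 of the 39 genes were at least 2-fold lower after Sp1 silencing and 1 was at least 2-fold higher, beside 6.19% and 6.2% of all 15186 genes. The 8 were ASNS, SLC1A5, SLC7A5, SLC7A11, PHGDH, EIF2AK3, ERO1A and EDEM1, and HSP90B1 was the higher one. Quantile normalization gave 8 lower and 0 higher, and no scaling gave 9 lower and 0 higher. With CoCl2, 8 were at least 2-fold lower and 0 higher, beside 8.04% and 7.2% of all 15042 genes. Here no scaling gave 6 lower and 1 higher, and quantile normalization gave 8 lower and 1 higher. These comparisons use different arrays, and 7 genes were lower in both, out of 9 that were lower in either, DNAJC3 replacing EDEM1 with CoCl2. The same overlap was not counted over all genes, so it is not read as particular to these genes. The comparison without CoCl2 shares the NS-si array with the CoCl2 comparison in NS-si cells and the Sp1-si array with that in Sp1-si cells, so a low value on a shared array enters both.

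Of the 10 genes of the amino acid arm, 5 were at least 2-fold lower in Sp1-si cells both without and with CoCl2. Taken singly, the comparisons had 6.19% and 8.04% of all genes at least 2-fold lower. ASNS gave 52480 without and 56738 with CoCl2 in NS-si cells, and 14614 without and 15013 with it in Sp1-si cells. The log2 ratio of Sp1-si to NS-si cells was -1.84 without and -1.92 with CoCl2 (spot SD 0.0233 and 0.0227), so that Sp1-si cells held 27.9% and 26.5% of the NS-si signal. Its 2 silenced arrays were alike and lay far below the 2 others, whether or not CoCl2 was present.

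The transporters of this arm that were at least 2-fold lower were SLC7A5, SLC7A11 and SLC1A5. SLC7A5 gave 35465 in NS-si against 11299 in Sp1-si cells without CoCl2, and 47526 against 14659 with it, log2 ratios of -1.65 and -1.70, and its second probe gave -0.88 and -1.87. SLC7A11 gave 3765 against 1289.7 without and 5138 against 1499.8 with CoCl2, ratios of -1.55 and -1.78, and its other probes gave -1.46 and -1.63 without CoCl2 and -1.59 and -2.57 with it. All probes of both transporters were thus lower on the silenced arrays. SLC1A5 gave 1519 against 454 without and 1932 against 356 with CoCl2, ratios of -1.74 and -2.44, the lowest of the 39 genes with CoCl2. Its level in Sp1-si → CoCl2 cells was 18.4% of that in NS-si → CoCl2 cells.

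The synthesis enzymes were split. PHGDH, the first enzyme of serine synthesis from glycolysis, gave 2837 without and 3077 with CoCl2 in NS-si cells, and 1041 without and 1267 with it in Sp1-si cells, ratios of -1.45 and -1.28 (-0.88 with CoCl2 when arrays were not scaled). The next enzymes of the same path did not follow it, with -0.41 and -0.16 for PSAT1 and 0.00 and -0.16 for PSPH. SHMT2 had -0.49 and -0.34 and SLC7A1 had -0.47 and -0.36. MTHFD2 was on the other side, at 0.49 and 0.33, from 7107 in NS-si to 9959 in Sp1-si cells and from 9998 to 12581 with CoCl2. ATF4 mRNA itself had log2 ratios of 0.03 and -0.17 in these comparisons.

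The sensor gene EIF2AK3 was lower in Sp1-si cells by log2 ratios of -1.24 without and -1.58 with CoCl2, 42.2% and 33.4% of the NS-si signals. ERO1A was at -1.13 and -1.40, and its second probe at -1.30 and -1.27. Thus both genes had a lower level at either state and still a CoCl2 ratio above 2-fold in silenced cells. EDEM1 gave 1020.5 without and 1480.5 with CoCl2 in NS-si cells, and 491 without and 790 with it in Sp1-si cells, ratios of -1.06 and -0.91. That is close to the threshold on both sides, and its second probe gave -0.72 and -0.92. ATF5 was just short of 2-fold without CoCl2, at -0.99, and at -0.37 with it, and CEBPB had -0.77 and -0.17.

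Genes of the folding arm lay on both sides of 0 between Sp1-si and NS-si cells. Of the 13, 8 were below 0 without and 9 with CoCl2, where 50.82% and 51.98% of all genes were. Without scaling these counts were 8 and 4, where 55.93% and 26.55% of all genes were. At least 2-fold lower were 1 without and 2 with CoCl2, beside 6.19% and 8.04% of all genes. HSP90B1 gave 155630 without and 176050 with CoCl2 in NS-si cells, and 318350 without and 293480 with it in Sp1-si cells, the only gene of the list past 2-fold upward. Its log2 ratio was 1.03 without and 0.74 with CoCl2, and its second probe gave 1.55 and 0.08. It was below 2-fold under quantile normalization (0.85) and without scaling (0.98). HSPA5 had -0.05 and -0.20 on the probe used and 0.86 and 0.42 on the other, so that the sign of its ratio depends on the probe. CANX likewise had 0.24 and 0.11 on one probe and -1.01 and -0.73 on the other. DNAJB9 was at 0.54 and -0.02. DNAJC3 gave 1449 in NS-si against 1116 in Sp1-si cells without CoCl2, and 1550.5 against 619 with it, so that the array of silenced and treated cells was the low one, with ratios of -0.38 and -1.32 (-0.93 without scaling). PDIA3 had -0.38 and -0.69, with its other 2 probes within 0.1 of these values. SDF2L1, PDIA4, PDIA6, CALR, MANF and CRELD2 ranged from -0.19 to 0.31 without CoCl2 and from -0.54 to 0.12 with it.

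The CHOP arm had no gene past 2-fold between Sp1-si and NS-si cells in either state. For 5 genes this is near the share of all genes that were lower, 6.19% without and 8.04% with CoCl2. DDIT3 had log2 ratios of 0.32 and 0.08, PPP1R15A 0.07 and -0.24, PPP1R15B 0.30 and -0.18, CHAC1 -0.18 and -0.06 and TRIB3 -0.19 and -0.62. The remaining sensors and factors, ERN1, ATF6, XBP1, ATF4 and CEBPG, ranged from -0.27 to 0.13 without CoCl2 and from -0.76 to -0.17 with it. HERPUD1 had 0.44 and -0.49, and SEL1L had 0.04 and -0.29. With CoCl2, 33 of the 39 ratios were below 0, where 51.98% of all genes were. Without scaling 14 of the 39 were, where 26.55% of all genes were below 0.

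**Figure D3:**
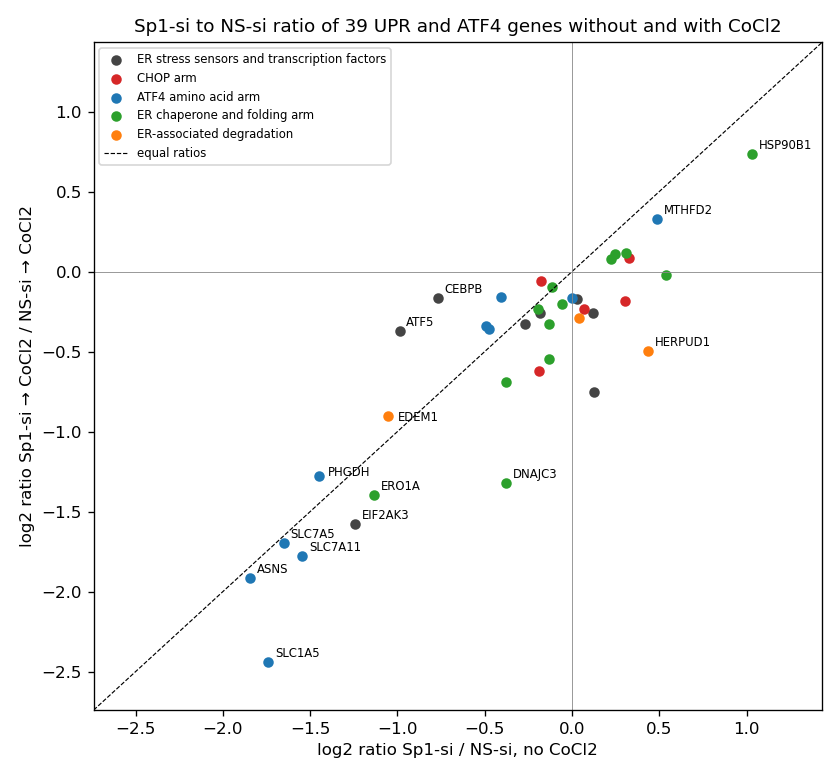
Log2 ratio of Sp1-si to NS-si cells for each of the 39 genes without CoCl2 (x axis) and with CoCl2 (y axis), coloured by role, 1 array per condition, with the dashed line marking equal ratios. ASNS, SLC1A5, SLC7A5, SLC7A11 and PHGDH of the amino acid arm lie at the lower left with EIF2AK3 and ERO1A, and HSP90B1 at 1.03 and 0.74 is the highest.

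The difference of the CoCl2 ratios, Sp1-si minus NS-si cells, asks whether CoCl2 moved a gene by another amount once Sp1 was silenced. None of the 39 genes reached 2-fold in this difference, beside 0.994% of all 14283 genes higher and 2.86% lower. The most negative were DNAJC3 at -0.95, HERPUD1 at -0.93 and the dim ERN1 at -0.88 (spot SD 0.476), followed by SLC1A5 at -0.70 and DNAJB9 at -0.56. ATF5 at 0.62 and CEBPB at 0.60 were the most positive, and the second probe of CEBPB gave -0.45. The second probes of HSP90B1 and SLC7A5 gave -1.47 and -0.99, where the brighter probes used here gave -0.30 and -0.05. For 7 of the 39 genes the CoCl2 ratios had opposite signs in NS-si and silenced cells, each past 2 spot SDs, beside 11.8% of all 14283 genes. The difference was below 0 for 30 genes and above 0 for 9, where 48.15% of all genes were below 0. Without scaling it was below 0 for 6 and above 0 for 33, where 11.81% of all genes were below 0. With scaling, the difference was -0.34 for EIF2AK3, -0.43 for TRIB3, -0.30 for PPP1R15A and -0.27 for ERO1A. This leaves the CoCl2 ratio of each above 2-fold in silenced cells. Of the 5 amino acid genes at least 2-fold lower in Sp1-si cells, SLC1A5 had the -0.70 given above. On the probes used, ASNS, PHGDH, SLC7A5 and SLC7A11 had differences between -0.23 and 0.17. The other probes of SLC7A11 gave -0.94 and -0.13, so for SLC7A11, as for SLC7A5, the size depended on the probe.

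Set side by side, the arms had their larger medians in different comparisons. The ER chaperone and folding arm had median log2 ratios of 0.22 with CoCl2 in NS-si cells (-0.0025 without scaling), 0.08 in Sp1-si cells (0.30 without scaling), -0.11 for Sp1-si against NS-si cells and -0.20 for the same with CoCl2 (0.19 without scaling). The ATF4 amino acid arm had 0.23 and 0.16 with CoCl2 (0.0067 and 0.38 without scaling), and -0.97 and -0.82 between Sp1-si and NS-si cells, a median below 0 also without scaling (-1.02 and -0.42). The CHOP arm had 0.50 and 0.26 with CoCl2 (0.27 and 0.48 without scaling), and 0.07 and -0.18 (0.21 without scaling) between Sp1-si and NS-si cells. Over all genes these medians were 0.0044, -0.006, -0.0093 and -0.0297. The 5th to the 95th percentile of single genes ran from -0.86 to 0.91, -0.91 to 0.87, -1.103 to 1.104 and -1.25 to 1.18, a range for single genes that says nothing of how medians vary. Arms were described by counts and medians and were not tested against each other, since genes of an arm are not replicates. By count, CoCl2 took 2 of 5 CHOP arm genes, 2 of 13 folding genes and 0 of 10 amino acid genes past 2-fold in NS-si cells, beside 4.21% of all genes. Without CoCl2, 0 of 5, 1 of 13 and 5 of 10 were at least 2-fold lower after silencing, beside 6.19% of all genes. With 5 to 13 genes in an arm, these counts were not tested against the shares over all genes.

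**Figure D4:**
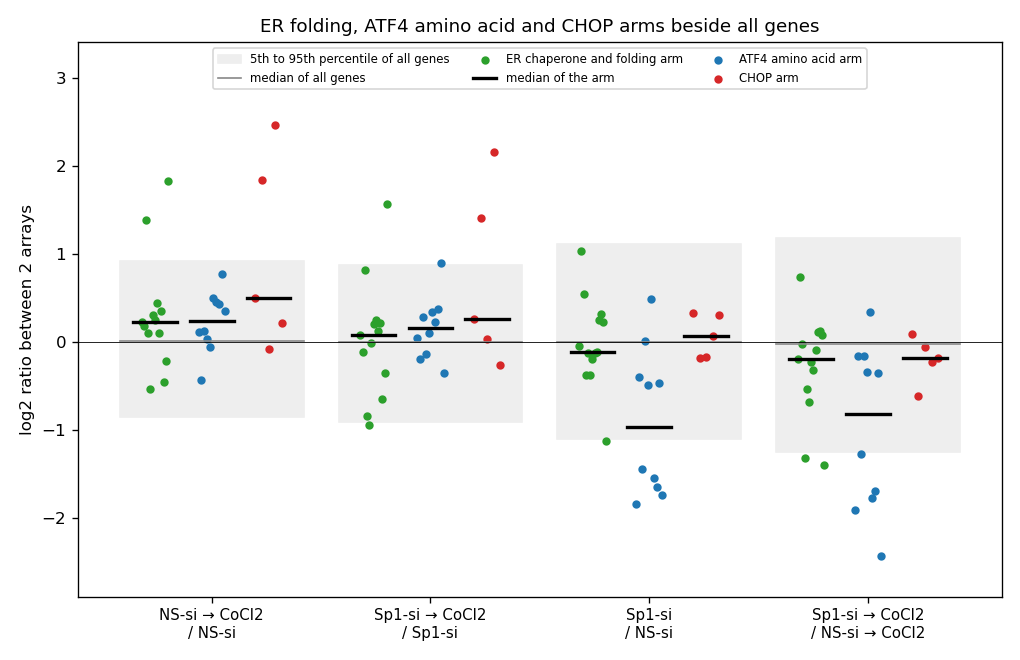
Log2 ratio between arrays for genes of the ER chaperone and folding (13 genes), ATF4 amino acid (10) and CHOP (5) arms in the 4 comparisons, each point a gene, each black bar the arm median, with the grey box from the 5th to the 95th percentile of all genes. The amino acid arm has medians of -0.97 and -0.82 in the comparisons of Sp1-si with NS-si cells, and the CHOP arm has medians of 0.50 and 0.26 with CoCl2.

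In all, 25 of the 39 genes reached 2-fold in none of the 4 comparisons on the probe used, among them ATF4, XBP1, DDIT3 and HSPA5. For called genes with further probes, the other probes had the same sign in every comparison. With CoCl2, 3 of 3 such probes in NS-si cells and 2 of 3 in Sp1-si cells also passed 2-fold. Between Sp1-si and NS-si cells 4 of 6 did so without and 4 of 4 with CoCl2. This agreement covers only ratios past 2-fold on the probe used. Where that probe fell short, the second probe of SLC7A5 gave 1.05 with CoCl2 in NS-si cells. Likewise that of HSP90B1 gave -1.63 with CoCl2 in Sp1-si cells. The second probe of CANX, a gene among the 25, gave -1.01 for Sp1-si against NS-si cells without CoCl2.

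Other genes known as ATF4 targets held a few large values among many small ones. Of 17 other ATF4 target genes with a ratio, 3 were at least 2-fold higher with CoCl2 in NS-si cells and 0 lower, beside 4.21% and 3.54% of all genes. These were STC2, a secreted glycoprotein that is also a HIF target, at 3.12, ATF3, a stress-induced factor, at 2.68, and GDF15, a stress cytokine, at 1.35. STC2 gave 108 without and 939.7 with CoCl2 in NS-si cells, and 58.0 without and 536 with it in Sp1-si cells. ATF3 gave 1571 and 10061 in NS-si cells, and 3358.5 and 16822 in silenced cells, without and with CoCl2. In Sp1-si cells 4 of 16 were higher, beside 3.72% of all genes, with STC2 at 3.21, ATF3 at 2.32, DDIT4, an inhibitor of mTORC1 and HIF target, at 1.37, and GPT2, an alanine transaminase named after its value was seen, at 1.09. GDF15 was at 0.50 there. Between Sp1-si and NS-si cells without CoCl2, 3 of 17 were higher, beside 6.2% of all genes, with CLIC4 at 1.76, CTH, which makes cysteine, at 1.33 and ATF3 at 1.096. The transcription repressor JDP2 was the 1 lower gene, at -2.02 without and -2.74 with CoCl2. A count of 1 in 17 is near the shares of all genes that were lower, 6.19% without and 8.04% with CoCl2. With CoCl2, CLIC4 at 1.07 was the only one higher, where 7.2% of all genes were. This count depended on the scaling. Without scaling 3 of the 17 were at least 2-fold higher, where the median of all genes moved to 0.37.

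Of 20 other genes of ER folding and secretion, HSPA13 alone passed 2-fold with CoCl2, at 1.03 in NS-si and 0.22 in silenced cells, and 0 were lower. This count is near the 4.21% of all genes, and without scaling HSPA13 was under 2-fold too. WFS1, an ER membrane protein that restrains ATF6, was higher in Sp1-si cells by 1.32 without and 1.55 with CoCl2, from 889 in NS-si to 2214 in Sp1-si and from 876 to 2570.3 with CoCl2. MBTPS1, the site-1 protease that cleaves ATF6, had 1.06 and 0.71. HYOU1 and P4HB, BiP's exchange factor and a protein disulfide isomerase, had CoCl2 ratios of 0.45 and 0.55 in NS-si cells and 0.44 and 0.49 in Sp1-si cells, named here after their values were seen. The median CoCl2 ratio over the 20 genes was 0.09 in NS-si and 0.0044 in silenced cells (-0.13 and 0.23 without scaling).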

How the data were processed

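Cy3-labelled RNA of OVSAYO cells in 4 conditions was hybridised to 1 array each of a whole human genome design annotated on hg18. Per the file headers, Agilent Feature Extraction 10.5.1.1 made the deposited intensities: it subtracted background, removed trends over the array and put a small surrogate in place of signals that did not exceed background. No normalization between arrays was applied. Outlier and well-above-background calls (other values) were deposited per spot. A value table, also deposited by the authors, equals these intensities times 1 constant per array (1.25 to 1.58).

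Groups came from the labels. Intensities of 43376 non-control spots, without 66 to 73 outlier spots per array, were taken as log2 minus the 75th percentile of the array (977 to 1285) and averaged per probe, giving 41000 probes. A probe counted as well above background with at least 50% of its spots so called, and a ratio needs this on at least 1 of its arrays (the other then gives a bound), the difference of CoCl2 ratios on all 4. RefSeq accessions gave symbols to 28463 of 29877 spots (26222 probes, 17721 genes) through a table on GRCh38.p14, which is not the array's build, so probe coordinates are not given. The probe with the highest mean signal stands for a gene, and a call needs 2-fold. Without replicates there was no test. Simulated data served to check the calling step, which recovered all 200 planted changes among 41000 probes with 0 false calls. The planted changes were larger than the 2-fold call and the added noise was small beside it, so this outcome followed from the settings. It checks that the steps ran and does not measure the error of the calls made here.

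The members and gene lists were chosen with earlier results of these data known. All 39 measured genes are named, with every array for those past 2-fold and for ATF4, XBP1, DDIT3, HSPA5, TRIB3 and ASNS. Genes of other lists are named where past 2-fold and well above background on all 4 arrays, at most 3 each way per list, with exceptions said in the text. Alternatives were other scalings, the authors' table, background correction, a floor, outlier spots, other probes and 1.5-fold calls. The background correction by normexp (limma 3.58.1, R 4.3.3, offset 50) was planned on mean spot signals but run on median ones, a choice made after seeing the data, as was scaling by the authors' constants. Tables were made with Python 3.11.15, numpy 2.4.6 and pandas 2.3.3. The number of arrays limits the precision.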

Additional observations from a re-analysis of the deposited data

Results flagged for a closer look

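For 7 of the 39 genes the log2 CoCl2 ratio pointed one way in NS-si cells and the other way in silenced cells, each by more than 2 spot SDs, where 11.8% of the 14283 genes well above background on all arrays did so. The difference, Sp1-si minus NS-si, was not tested, since each condition had 1 array. It was -0.95 for DNAJC3, the cochaperone that restrains PERK, -0.93 for HERPUD1 of ER-associated degradation and -0.70 for the glutamine transporter SLC1A5. It was -0.49 for PPP1R15B and -0.30 for HSP90B1. In the other direction it was 0.62 for ATF5 and 0.15 for SHMT2. For HSP90B1 the second probe was below 0 in both kinds of cells (-0.16 and -1.63), and that of SHMT2 was above 0 in both (0.12 and 0.08), so the opposite signs of these genes belong to 1 probe. Without scaling between arrays, 5 of the 7 still had opposite signs, those of HSP90B1 each being turned (-0.05 and 0.11), while DNAJC3 (-0.13 and -0.63) and PPP1R15B (-0.01 and -0.05) were below 0 in both kinds of cells. The difference then moved by the same amount for every gene, and was above 0 for 33 of the 39, where 11.81% of all genes were below 0.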

How the results depend on the processing

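Each condition had 1 array, so no array could be left out and no spread between cultures was measured. No paired analysis was possible because no condition has a second array. Over 11 alternatives, the 28 member ratios past 2-fold gave 308 values, of which 0 changed sign and 6 were under 2-fold. These were HSP90B1 in Sp1-si against NS-si cells (0.85 after quantile normalization, 0.98 without scaling), PHGDH (-0.88) and DNAJC3 (-0.93) in the same comparison with CoCl2 without scaling, and EDEM1 without CoCl2 (-0.89 as a mean over probes, -0.94 with normexp). The authors' table at the common percentile, the floor, and the limit to genes well above background on all arrays could not move a member ratio. Their values among the 308 repeat the main ones and say nothing of stability. Of all member ratios and differences, 61 changed sign without scaling and 6 with normexp. Dim genes such as ERN1 are limited by a spot SD near 0.3. The cause of the shifts below was not tested.

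With calls at 1.5-fold, silenced cells had 8 genes higher and 3 lower with CoCl2. At this cut Sp1-si → CoCl2 cells had 1 higher against NS-si → CoCl2, and the difference of CoCl2 ratios had 2 higher and 4 lower. These counts show only the dependence on the cut, as no share of all genes past 1.5-fold is set beside them. Quantile normalization gave 1 lower with CoCl2 in silenced cells, 0 higher for Sp1-si against NS-si and 1 higher for the same with CoCl2. No scaling gave 0 and 1 for these last counts and 2 higher for the difference, and the authors' constants gave 1 lower with CoCl2 in silenced cells. Counts under the other alternatives stayed within 1.5 times.

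Arm medians moved by more than the spot SD as follows, in the order folding, amino acid and CHOP arm where 3 are given. With CoCl2 in NS-si cells they were -0.0025, 0.0067 and 0.27 without scaling, 0.15, 0.16 and 0.42 with the authors' constants, and 0.19, 0.19 and 0.38 with normexp. Folding and amino acid arms were 0.19 and 0.20 with the percentile over probes well above background, folding was 0.14 after quantile normalization and amino acid 0.27 as a mean over probes. In silenced cells with CoCl2 they were 0.18, 0.26 and 0.36 with median scaling, 0.30, 0.38 and 0.48 without scaling and 0.0224, 0.101 and 0.20 with the authors' constants. Quantile normalization gave folding 0.0498 and CHOP 0.30, the mean over probes gave folding 0.0386 and amino acid 0.062, and normexp gave CHOP 0.20. For Sp1-si against NS-si they were -0.17, -1.02 and 0.0135 without scaling and -0.0743, -0.93 and 0.107 with the authors' constants, folding was -0.0593 after quantile normalization, and amino acid was -0.9999 as a mean over probes and -0.94 with normexp. For the same with CoCl2 they were -0.0916, -0.71 and -0.0756 with median scaling, 0.19, -0.42 and 0.21 without scaling, -0.14, -0.76 and -0.12 with the authors' constants and -0.11, -0.77 and -0.12 after quantile normalization. The mean over probes gave folding -0.24 and amino acid -0.95, and normexp gave amino acid -0.79. The difference of CoCl2 ratios had -0.0999, 0.0367 and -0.21 with median scaling and 0.25, 0.39 and 0.15 without scaling, folding at -0.14 and amino acid at -0.0045 after quantile normalization, and amino acid at -0.11 as a mean over probes and -0.0232 with normexp.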

Other observations

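The aminoacyl-tRNA synthetases that ATF4 is known to raise charge tRNAs with amino acids, and 9 of the 10 listed had a probe. All 9 had a log2 ratio below 0 between Sp1-si and NS-si cells without CoCl2, from -0.97 for YARS1 to -0.20 for WARS1, with a median of -0.44, and 0 of them reached 2-fold, where 50.82% of all genes were below 0 and 6.19% at least 2-fold lower. With CoCl2 8 of the 9 were below 0, beside 51.98% of all genes, with a median of -0.24. Without scaling these counts were 9 and 3, beside 55.93% and 26.55% of all genes, with medians of -0.50 and 0.16. Their CoCl2 ratios had medians of -0.13 in NS-si and 0.08 in silenced cells.

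Genes of the eIF2 machinery, 11 measured, showed 0 past 2-fold with CoCl2, and 10 of the 11 ratios in NS-si cells were below 0, with a median of -0.32, where 49.45% of all genes were below 0, 4.21% at least 2-fold higher and 3.54% lower. The other eIF2 kinases EIF2AK1, EIF2AK2 and EIF2AK4 (HRI, PKR and GCN2) had CoCl2 ratios of 0.19, -0.32 and -0.53 there, where that of EIF2AK3 was 1.53. EIF2B4, a subunit of the exchange factor that eIF2 phosphorylation blocks, was higher in Sp1-si → CoCl2 than in NS-si → CoCl2 cells, at 1.18, and at 0.81 without CoCl2.

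Of 10 other genes of ER-associated degradation, 0 passed 2-fold with CoCl2, near the 4.21% higher and 3.54% lower of all genes in NS-si cells. In Sp1-si cells these shares were 3.72% and 3.97%. All 10 were below 0 between Sp1-si and NS-si cells without CoCl2, with a small median of -0.14, where 50.82% of all genes were. EDEM2, a homolog of EDEM1, was the only one past 2-fold, at -1.13 without and -1.12 with CoCl2, from 7092 in NS-si to 3239 in Sp1-si and from 7460.2 to 3426 with CoCl2. Its ratio with CoCl2 was under 2-fold without scaling. A count of 1 in 10 is near the 6.19% and 8.04% of all genes that were at least 2-fold lower.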
